A study of Arabidopsis thaliana with 4 samples.

Results

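The GASA genes (gibberellic acid stimulated in Arabidopsis) encode small secreted peptides rich in cysteine. The 10 genes described here, GASA1, GASA2, GASA3, GASA4, GASA5, GASA6, GASA7, GASA9, GASA10 and GASA14, were chosen by their locus identifiers among 32833 genes in a table of read counts. Of these 10 genes, 7 had enough counts to be tested, 2 had a few counts, and 1 had none. RNA came from whole seedlings of Arabidopsis thaliana Col0 aged 7 days, grown in 16 h of light and 8 h of dark at 22 °C. The wt group was Col0 with no other allele named, and the cml39 group was cml39 -/- in Col0, a genotype named for the calmodulin-like calcium sensor CML39. The mutant allele is not given in the sources used here, and both groups shared ecotype, age and growth conditions. Each group had 2 stranded mRNA libraries, and the labels do not say whether these came from separate cultures. The p-values therefore measure only the spread between these libraries, which may be technical.

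Gibberellins are growth hormones that promote germination, elongation and flowering. A gibberellin bound by a GID1 receptor lets the receptor bind DELLA proteins, growth repressors that are then degraded. GASA peptides are relatives of tomato GAST1, a gene switched on by gibberellin, and share a cysteine-rich C-terminal domain. GASA1 and GASA4 were among the first members described in Arabidopsis. GASA4 is known from meristems and growing roots, and GASA6 from germination.

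All 10 genes matched the RefSeq annotation of TAIR10.1, the source of every position and sequence given here. Their coding sequences ran from 270 to 828 bases, and each held 12 cysteine codons in its last 60 codons. Those codons are shown for GASA1 and GASA14, which rose, and for GASA4 and GASA6, the members that fell most among those with counts in every library, because the cysteine pattern is what the family shares and the letters between are where members differ. Cysteine codons are in capitals, in the coding direction, with introns removed.
GASA1: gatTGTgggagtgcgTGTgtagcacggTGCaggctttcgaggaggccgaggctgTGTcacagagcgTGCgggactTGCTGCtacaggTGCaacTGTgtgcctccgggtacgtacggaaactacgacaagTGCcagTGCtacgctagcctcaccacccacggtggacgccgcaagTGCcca
GASA14: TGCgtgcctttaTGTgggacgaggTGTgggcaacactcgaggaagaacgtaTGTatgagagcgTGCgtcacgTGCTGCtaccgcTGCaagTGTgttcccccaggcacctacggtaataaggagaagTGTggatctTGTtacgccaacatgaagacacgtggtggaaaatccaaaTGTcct
GASA4: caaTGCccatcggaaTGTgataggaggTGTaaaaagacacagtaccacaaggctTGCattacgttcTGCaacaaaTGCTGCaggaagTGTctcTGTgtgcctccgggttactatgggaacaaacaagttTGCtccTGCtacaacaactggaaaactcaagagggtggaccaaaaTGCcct
GASA6: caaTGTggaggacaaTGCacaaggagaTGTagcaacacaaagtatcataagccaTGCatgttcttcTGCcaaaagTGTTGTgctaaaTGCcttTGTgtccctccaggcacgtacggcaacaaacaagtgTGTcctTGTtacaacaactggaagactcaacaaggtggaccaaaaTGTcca

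The adjacent pair of cysteine codons in the middle of the domain was present in each of these 4 sequences. Over the 45 pairs of members, the aligned bases of the last 60 codons were 53.9 to 87.8% identical, with a median of 60.2%. GASA2 and GASA3, which lie 1123 bases apart on chromosome 4, were the most alike at 87.8%. GASA5 and GASA6 shared 74.2%, and GASA4 and GASA6, which moved the same way in these libraries, shared 73.0%. GASA1 and GASA14, which both rose, shared 61.3%, near the median of all pairs. GASA14 differed in its build from the rest, with 275 codons of which 29.5% coded for proline, against 4.04 to 7.92% in the other members. The longest stretch of bases identical between transcripts of any pair was 35, in GASA2 and GASA3.

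**Figure D1:**
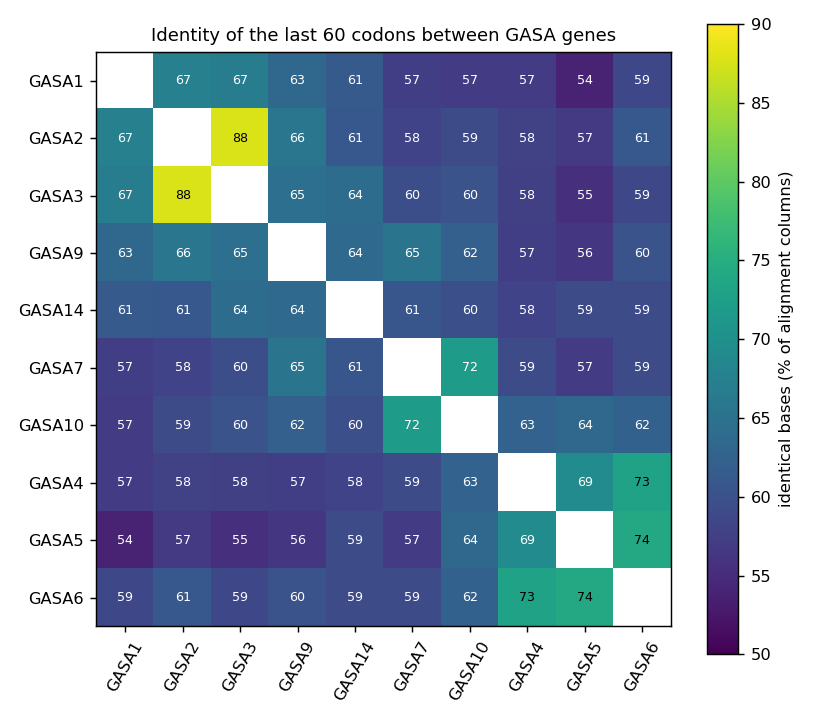
Percent identity of aligned bases over the last 60 codons for each of the 45 pairs of GASA members, with brighter cells for pairs more alike. The pair GASA2 and GASA3 stands highest at 87.8%, while GASA1 and GASA14 sit at 61.3%.

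The libraries held 19331639 to 24101882 counts, so a gene without counts is limited to at most 0.113 to 0.164 CPM (counts scaled for depth), the level of 3 counts in a library. Of 19834 genes tested with edgeR's quasi-likelihood F test, 40.9% passed at a Benjamini-Hochberg adjusted p under 0.05, with 19.3% higher and 21.6% lower in cml39. The median log2 fold change of cml39 over wt over all tested genes was -0.0052. Under upper-quartile scaling 2704 genes were higher and 5403 lower, against 3822 and 4285, and that median shifted by -0.15, with no change in the direction or call of a GASA member. Without wt 1, 3899 genes passed, against 8107 over the 4 libraries. CML39 itself (AT1G76640) went against its label, with 0 counts in both wt libraries and 45 and 21 counts in those labelled cml39, a rise of at least 27.4-fold when the wt group is set to 3 counts. Directions below are therefore those of the libraries labelled cml39 against the libraries labelled wt, and the name cml39 stands for that label throughout.

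Of the 7 tested GASA genes, GASA1 and GASA14 rose, GASA4, GASA6, GASA9 and GASA10 fell, and GASA7 did not pass. GASA10 entered the test only through its counts in wt, where it is high, so its fall is built into its being tested. The median log2 fold change was -0.68 over the 7 genes and -0.073 over the 6 without GASA10. At a change of at least 2-fold, 4 of those 6 passed (GASA1, GASA14, GASA4 and GASA6), beside 20.7% of all tested genes. With so many genes called in these libraries, single calls among the members are common by background, and the description rests on the sizes and the separate directions.

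**Figure D2:**
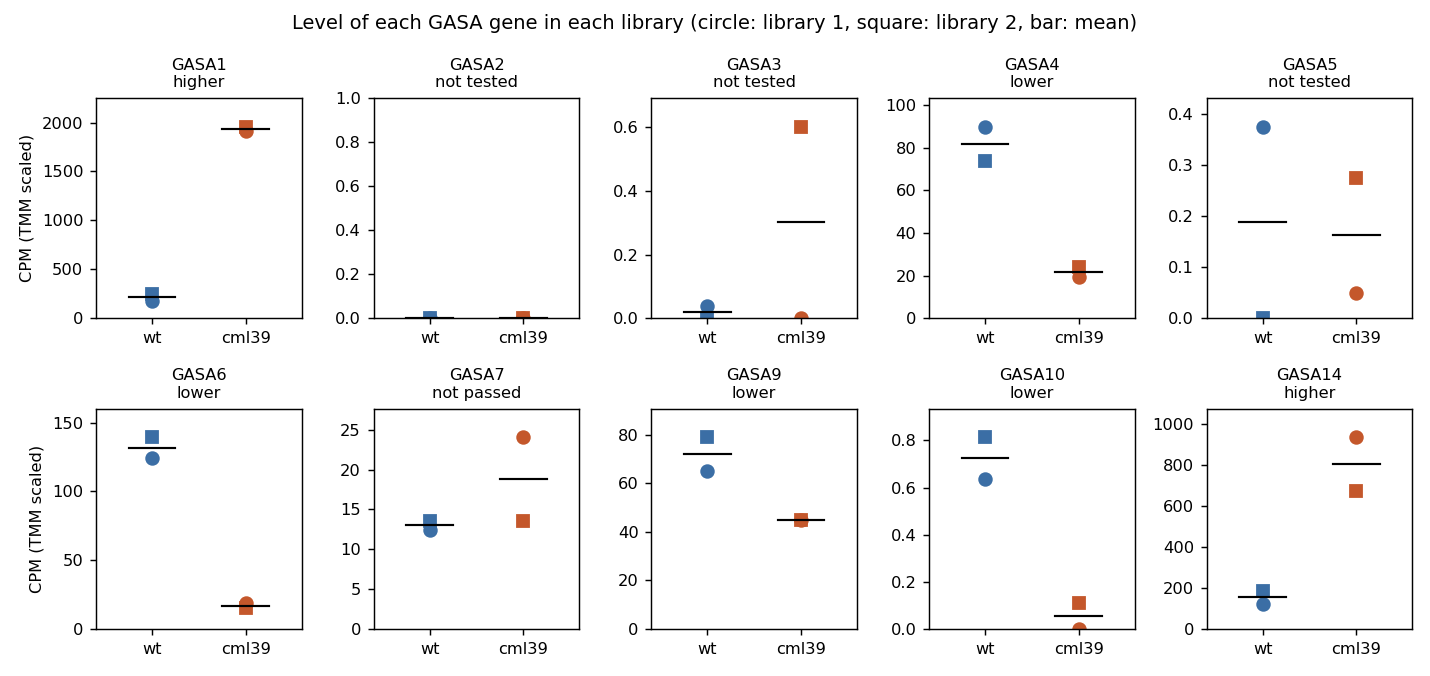
Level of each GASA member in each library, in CPM on a linear axis from 0 with its own scale in each panel, with circles for library 1, squares for library 2 and a bar at the group mean. GASA1 and GASA14 lie higher in both cml39 libraries, GASA4, GASA6, GASA9 and GASA10 lie lower, and the GASA7 groups overlap.

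GASA1 (AT1G75750, chr1:28441501-28442435, minus strand, 3 exons) is a gibberellin-responsive member known from growing tissues. It was read at 178 CPM in wt 1, 250 CPM in wt 2, 1911 CPM in cml39 1 and 1958 CPM in cml39 2. Both cml39 libraries lay far above both wt libraries, and they were closer to each other than the wt libraries were. The mean level rose from 214 ± 51.0 to 1935 ± 33.2 CPM (SD, n = 2 libraries per group), a log2 fold change of 3.17 ± 0.17 (SE; edgeR adjusted p = 4.9e-05), or 9.03-fold. Leaving out each library in turn kept it between 2.95 and 3.43. In raw counts, 4753 and 5236 in wt stood against 37995 and 35790 in cml39, so counting error was small beside the difference. Among all 19834 tested genes GASA1 had the 94th largest rise, and it took 0.173 and 0.181% of all counts in the cml39 libraries against 0.0197 and 0.0271% in wt.

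GASA14 (AT5G14920, chr5:4826141-4828384, plus strand, 4 exons) encodes the proline-rich member, known from leaf expansion and stress tolerance. Its level was 123 CPM in wt 1, 187 CPM in wt 2, 937 CPM in cml39 1 and 676 CPM in cml39 2. The groups did not overlap, and the spread within each group was wider than that of GASA1 in cml39. The mean went from 155 ± 45.3 to 806 ± 184 CPM (SD, n = 2), a log2 fold change of 2.38 ± 0.23 (SE; edgeR adjusted p = 0.000283), or 5.19-fold. It ranked 239th among the rises, and without each library in turn the change stayed between 2.11 and 2.70.

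GASA6 (AT1G74670, chr1:28053030-28054149, plus strand, 3 exons), a promoter of germination, showed the largest fall of the members with counts in every library. It stood at 124 CPM in wt 1, 139 CPM in wt 2, 18.7 CPM in cml39 1 and 15.2 CPM in cml39 2. The cml39 libraries were both low and close together, with no overlap between groups. Its mean fell from 132 ± 10.6 to 16.9 ± 2.44 CPM (SD, n = 2), a log2 fold change of -2.96 ± 0.14 (SE; edgeR adjusted p = 3.1e-05), or 7.79-fold lower. The range without each library was -3.11 to -2.81, and it was the 763rd largest fall. On the opposite strand AT1G74675 shares 206 bases of exon with GASA6, none of them coding, and it had 0 counts in all 4 libraries.

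GASA4 (AT5G15230, chr5:4944816-4946299, plus strand, 4 exons), known from meristems and growing roots, also fell. Its level was 89.96 CPM in wt 1, 73.8 CPM in wt 2, 19.6 CPM in cml39 1 and 24.1 CPM in cml39 2. Both cml39 libraries lay below both wt libraries. Its mean went from 81.9 ± 11.4 to 21.8 ± 3.22 CPM (SD, n = 2), a log2 fold change of -1.91 ± 0.15 (SE; edgeR adjusted p = 0.000141), or 3.75-fold lower, with a range of -2.06 to -1.76 without each library. GASA4 lies 116431 bases from GASA14 on chromosome 5, and these genes moved in opposite directions.

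GASA9 (AT1G22690, chr1:8027126-8028168, plus strand) fell by less than 2-fold. Its level was 65.1 CPM in wt 1, 78.9 CPM in wt 2, 45.0 CPM in cml39 1 and 44.8 CPM in cml39 2. The groups did not overlap, and the cml39 libraries were almost equal. The log2 fold change was -0.68 ± 0.12 (SE; edgeR adjusted p = 0.00404, n = 2), between -0.81 and -0.54 without each library. Its last 11 exon bases overlap AT1G22700 on the other strand, which did not pass (log2 fold change 0.19, edgeR adjusted p = 0.228).

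GASA10 (AT5G59845, chr5:24111304-24112100, plus strand) was near the limit of detection, with 17 counts in wt 1, 17 in wt 2, 0 in cml39 1 and 2 in cml39 2. Counts were low in all libraries and lower in cml39. The scaled count ratio of wt to cml39 was 13.6, with an exact binomial 95% interval of 3.50 to 117 that covers counting error only. It passed over all 4 libraries (edgeR adjusted p = 0.0180) and did not pass without wt 1 (0.102, ratio 15.5), without wt 2 (0.117, ratio 12.2) or without cml39 1 (0.0591, ratio 6.53). Without cml39 2, no cml39 count was left, and GASA10 was 4.74-fold lower when that group is set to 3 counts. The exact binomial 95% interval of the ratio of wt to cml39 began at 3.65 in that setting.

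GASA7 (AT2G14900, chr2:6404131-6405352, plus strand) gave no call. Its level was 12.4 CPM in wt 1, 13.6 CPM in wt 2, 24.0 CPM in cml39 1 and 13.5 CPM in cml39 2. One cml39 library was high and the other lay between the wt libraries. The log2 fold change was 0.53 ± 0.25 (SE; edgeR adjusted p = 0.132, n = 2). It became 0.89 without cml39 2, with an edgeR adjusted p of 0.000261, and 0.060 without cml39 1, so the value rests on which cml39 library is kept.

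The remaining 3 members were too low to test. GASA5 (AT3G02885, chr3:637921-639242, minus strand), a member linked to flowering time through FLC, had 10, 0, 1 and 5 counts in wt 1, wt 2, cml39 1 and cml39 2. GASA3 (AT4G09600, chr4:6072804-6073646, minus strand) had 1, 0, 0 and 11 counts in the same order, and its tandem neighbour GASA2 (AT4G09610, chr4:6074770-6075645, minus strand) had 0 in every library. GASA2 and GASA3 are known from siliques and seeds, and the 11 counts of GASA3 fell in the library with the highest summed level of seed storage and late embryogenesis markers, described further on. The reference lists 16 genes of the family. The other 6 (AT1G10588, AT2G18420, AT2G30810, AT2G39540, AT3G10185 and AT5G06645) had 0 counts in all libraries, except for 1 count each of AT2G18420 and AT2G39540 in wt 1.

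**Figure D3:**
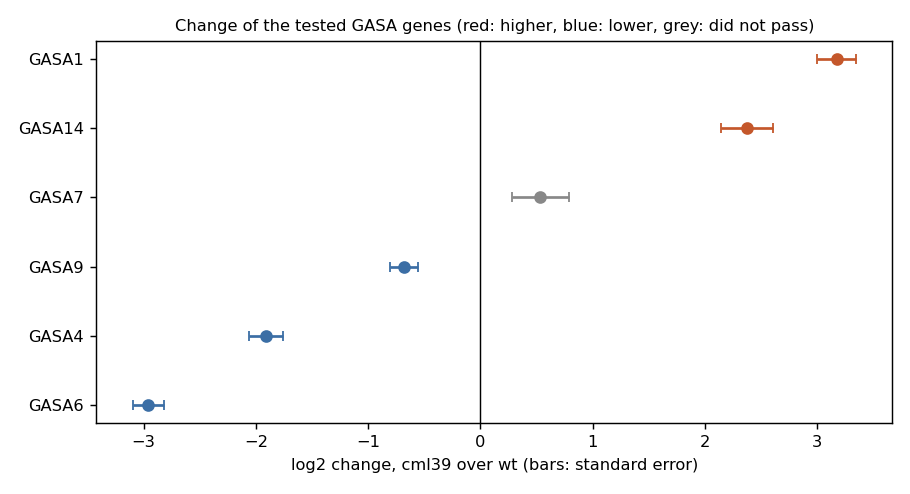
Log2 fold change of cml39 over wt for the tested GASA members apart from GASA10, as points with bars of 1 SE, coloured by whether they passed. GASA1 at 3.17 and GASA14 at 2.38 lie above 0, GASA6 at -2.96, GASA4 at -1.91 and GASA9 at -0.68 lie below it, and GASA7 at 0.53 did not pass.

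Levels of different genes were compared per kilobase of annotated exon. In wt, GASA1 was highest at 282 ± 67.1 CPM per kb (SD, n = 2), followed by GASA6 at 145 ± 11.6. GASA9 (94.3 ± 12.7), GASA4 (82.2 ± 11.5) and GASA14 (77.8 ± 22.7) came next in CPM per kb, and each overlapped its neighbour in this order. GASA7 was lower, at 18.2 ± 1.16 CPM per kb.

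The order differed in cml39. GASA1 stood at 2546 ± 43.6 CPM per kb (SD, n = 2) and GASA14 came second at 404 ± 92.4. GASA9 came next at 58.8 ± 0.149 CPM per kb. GASA7 (26.3 ± 10.4), GASA4 (21.9 ± 3.24) and GASA6 (18.6 ± 2.68) followed in CPM per kb and overlapped their neighbours, so GASA6 went from second in wt to a group of 3 members not separated by their spread.

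Summed over the members, the family stood at 627 and 774 CPM per kb in the wt libraries and at 3117 and 3035 in the cml39 libraries. The mean of this sum was 701 ± 104 in wt and 3076 ± 57.9 in cml39 (SD, n = 2), 4.39-fold higher, although more tested members fell than rose. GASA1 made up 37.4 and 42.6% of the sum in wt and 80.7 and 84.9% in cml39. The share of GASA6 was 21.8 and 19.8% in wt and 0.658 and 0.551% in cml39, and that of GASA4 was 14.4 and 9.57% in wt and 0.630 and 0.798% in cml39. GASA14, which rose, held a share of 9.85 and 12.1% in wt and 15.1 and 11.2% in cml39, ranges that overlap.

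**Figure D4:**
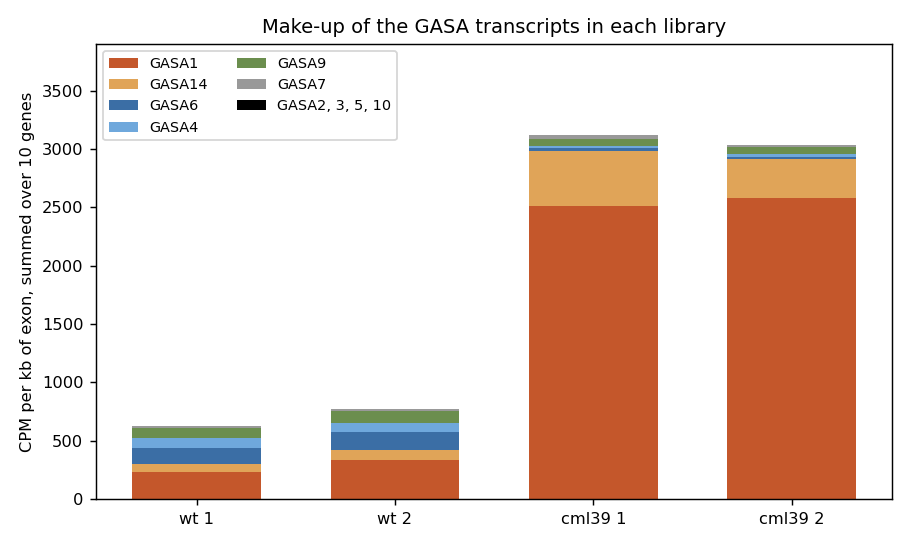
Stacked bars of the family's summed level in each library, in CPM per kilobase of exon, coloured by member. The sums are 627 and 774 in wt and 3117 and 3035 in cml39, and GASA1 fills 80.7 and 84.9% of the cml39 bars.

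Ratios of counts between 2 members within a library do not depend on how libraries are scaled. GASA1 had 1.43 and 1.797 counts for each GASA6 count in wt 1 and wt 2, and 102 and 129 in cml39 1 and cml39 2. For each GASA4 count, GASA1 had 1.98 and 3.39 counts in wt and 97.7 and 81.2 in cml39. GASA14 counts per GASA4 count were 1.37 and 2.54 in wt and 47.9 and 28.0 in cml39. Ratios between members that moved the same way shifted less. GASA1 per GASA14 was 1.45 and 1.34 in wt and 2.04 and 2.90 in cml39, and GASA4 per GASA6 was 0.723 and 0.530 in wt and 1.05 and 1.59 in cml39.

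The 250 bases before each annotated gene start were searched on both strands for 6 short motifs. The E-box CACATG, a sequence that phytochrome-interacting factors can bind, matched before 4 of the 10 members (GASA3, GASA4, GASA6 and GASA14), against 11.1% of 27443 promoters of the same length. The matches stood before GASA14, which rose, and before GASA4 and GASA6, which fell. These 3 promoters are shown for that contrast, on the gene's strand with the match in capitals, where CATGTG is the same motif read on the other strand.
GASA14, chr5:4825891-4826140, plus strand: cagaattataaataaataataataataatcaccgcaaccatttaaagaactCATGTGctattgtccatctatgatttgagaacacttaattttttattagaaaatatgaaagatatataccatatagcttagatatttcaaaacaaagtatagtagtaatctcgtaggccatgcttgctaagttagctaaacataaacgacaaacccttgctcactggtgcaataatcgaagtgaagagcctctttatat
GASA4, chr5:4944566-4944815, plus strand: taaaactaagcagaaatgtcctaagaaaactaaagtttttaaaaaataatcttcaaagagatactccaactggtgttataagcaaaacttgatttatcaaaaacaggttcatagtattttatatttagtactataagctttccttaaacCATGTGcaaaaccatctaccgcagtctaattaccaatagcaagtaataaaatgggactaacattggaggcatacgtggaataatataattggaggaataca
GASA6, chr1:28052780-28053029, plus strand: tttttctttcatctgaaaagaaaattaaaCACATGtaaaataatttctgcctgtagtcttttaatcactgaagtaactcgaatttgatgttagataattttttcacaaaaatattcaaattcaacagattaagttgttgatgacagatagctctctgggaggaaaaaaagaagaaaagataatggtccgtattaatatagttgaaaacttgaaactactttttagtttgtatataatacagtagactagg

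The gibberellin response element TAACAAA matched before GASA9 alone, against 16.1% of all promoters. The auxin response element TGTCTC also matched before GASA9 alone (10.9% of all promoters). The RY element CATGCA, a motif of seed genes, matched before GASA2, where its matches overlap each other, and before GASA9 (8.43%). No member had the G-box CACGTG (6.49%) or the W-box TTGACC (12.2%) in this window, and GASA1 had none of the 6 motifs there. A match is a description of letters, and the motifs were not compared with binding data.

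Genes of the gibberellin pathway were read beside the family. Of 14 genes of gibberellin synthesis, 7 were tested, 1 was higher and 2 were lower, 42.9% of those tested and near the 40.9% called over all genes. The median log2 fold change of the 7 was -0.33. Without GA20OX1, which entered the test only through wt, 6 were tested, with 1 higher, 1 lower and a median of -0.29. KO, which makes kaurenoic acid, was at 33.4 and 34.9 CPM in wt and 65.7 and 58.8 CPM in cml39, with a log2 fold change of 0.87 ± 0.11 (SE; edgeR adjusted p = 0.00095). KS, the kaurene synthase one step earlier, went the other way, from 10.6 and 9.995 CPM to 2.11 and 2.79 CPM (log2 fold change -2.07 ± 0.23, edgeR adjusted p = 0.00047). GA20OX1, an oxidase of the last steps before active gibberellin, had 86, 27, 1 and 2 counts in wt 1, wt 2, cml39 1 and cml39 2, or 113 in wt against 3 in cml39. Its fall is built into its being tested. The scaled ratio was 30.2, with an exact binomial 95% interval of 10.08 to 149 (edgeR adjusted p = 0.00279). That ratio was 16.4 without wt 1, 41.0 without wt 2, 21.7 without cml39 1 and 47.2 without cml39 2.

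Of 9 genes of gibberellin inactivation, 4 were tested, and GA2OX1 alone passed, lower in cml39. That is 25% of those tested, beside 40.9% called over all genes. GA2OX1 entered the test only through wt, so its fall is built into its being tested. Without it, 0 of the other 3 were higher and 0 lower. The list's median log2 fold change was -0.59 with GA2OX1 and 0.39 over the other 3. Among those 3, GA2OX4 (48, 34, 17 and 5 counts), which did not pass, also reached the count filter in both libraries of wt only. GA2OX1 had 43, 12, 0 and 0 counts in wt 1, wt 2, cml39 1 and cml39 2, at least 14.7-fold lower in cml39 when that group is set to 3 counts (edgeR adjusted p = 0.0081). Leaving out wt 1 gave a bound of 7.30-fold, and GA2OX1 was then too low to be tested. Leaving out wt 2, cml39 1 or cml39 2 gave 20.5-fold, 7.04-fold or 7.66-fold.

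All 12 genes of perception and DELLA function were tested, with 4 higher, 3 lower and a median log2 fold change of 0.019. The 7 calls were 58.3% of the list, beside 40.9% called over all genes. The 4 higher became 2 under upper-quartile scaling, with the replicate block and without wt 1, and 1 without wt 2, while the 3 lower became 1 without wt 1. The receptor gene GID1A was at 18.0 and 20.1 CPM in wt and 44.5 and 48.9 CPM in cml39, with a log2 fold change of 1.29 ± 0.12 (SE; edgeR adjusted p = 0.00027). GID1B, another receptor gene, changed by 0.73 ± 0.16 on the log2 scale (edgeR adjusted p = 0.0083, and 0.0652 without wt 2). GAI, a DELLA gene, was at 45.1 and 50.7 CPM in wt and 31.7 and 21.6 CPM in cml39, with a log2 fold change of -0.84 ± 0.18 (edgeR adjusted p = 0.0084). RGA, also a DELLA gene, was at 89.6 and 89.2 CPM in wt and 86.7 and 78.2 CPM in cml39. It did not pass (log2 fold change -0.12, edgeR adjusted p = 0.407), nor did the DELLA gene RGL2 (-0.89, edgeR adjusted p = 0.0646). The DELLA gene RGL3 changed by -0.997 ± 0.24 on the log2 scale (edgeR adjusted p = 0.0128, and 0.104 without wt 1). The other 3 calls were named after their values were seen. RGL1 was lower (log2 fold change -1.85 ± 0.45, edgeR adjusted p = 0.0135) and did not pass without wt 1 (0.0928). GID1C (0.41 ± 0.12, edgeR adjusted p = 0.0308) and SEC (0.37 ± 0.10, edgeR adjusted p = 0.0249) were higher by small log2 fold changes, and neither passed without wt 1 (0.234 and 0.204) or without wt 2 (0.121 and 0.0671).

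Of 7 genes known to be induced by DELLA proteins, all tested, 4 were higher and 0 lower, beside 19.3% higher over all genes, with a median log2 fold change of 1.81. SCL3, a GRAS-family regulator, was at 10.7 and 14.6 CPM in wt and 46.7 and 41.7 CPM in cml39, with a log2 fold change of 1.81 ± 0.17 (SE; edgeR adjusted p = 0.00024). BOI, a ring-finger protein that binds DELLA proteins, was at 5.59 and 7.46 CPM in wt and 33.7 and 23.8 CPM in cml39 (log2 fold change 2.15 ± 0.22, edgeR adjusted p = 0.00036). The bHLH genes AT5G50915 (1.99 ± 0.27, edgeR adjusted p = 0.00106) and AT2G31730 (1.86 ± 0.31, edgeR adjusted p = 0.00263) were higher on the log2 scale. The groups did not overlap in any of these 4 genes. They did not overlap either in LBD40 and WRKY27 of the same list, which did not pass. With 2 libraries per group, this separation adds nothing to the test. XERICO, the last gene of the list, went the other way and did not pass (log2 fold change -0.22, edgeR adjusted p = 0.336). Its groups overlapped.

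FLC and EXPA1 are genes that have been tied to the action of single GASA peptides, FLC to GASA5 and EXPA1 to GASA6. The floral repressor FLC was at 5.03 and 5.26 CPM in wt and 17.0 and 16.7 CPM in cml39, with a log2 fold change of 1.71 ± 0.16 (SE; edgeR adjusted p = 0.00028). EXPA1, an expansin that loosens cell walls, was at 122 and 115 CPM in wt and 25.8 and 53.5 CPM in cml39, with a log2 fold change of -1.59 ± 0.29 (edgeR adjusted p = 0.00386), or -2.20 without cml39 2. FLC rose while GASA5 stayed too low to test, and EXPA1 fell as GASA6 did.

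**Figure D5:**
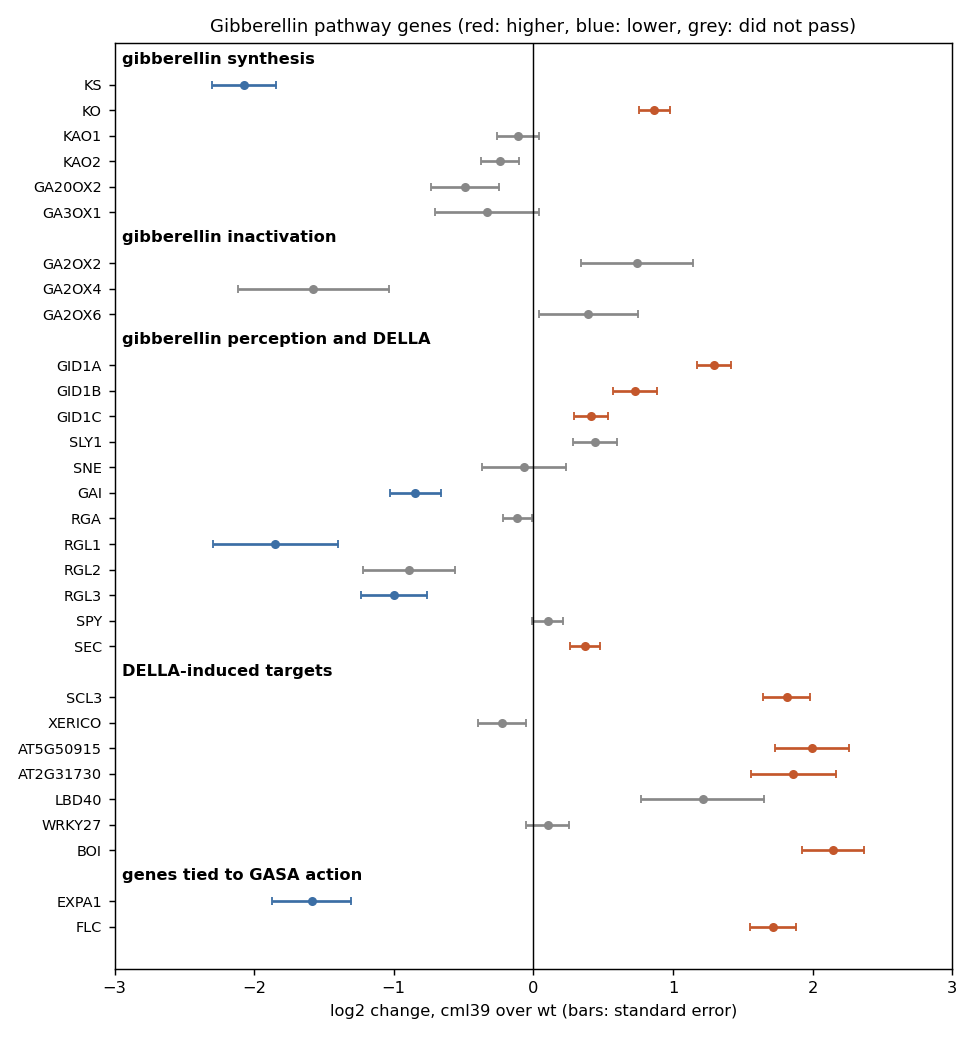
Log2 fold change of cml39 over wt, with bars of 1 SE, for tested genes of the gibberellin lists apart from GA2OX1 and GA20OX1, grouped by role and marked by whether they passed. SCL3, BOI, AT5G50915 and AT2G31730 lie between 1.81 and 2.15, and KS at -2.07 is the lowest value drawn.

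Markers of other tissues differed between the same libraries. Fewer cells of a type and less RNA per cell cannot be told apart in whole seedlings. Of 20 root markers, 16 were lower and 0 higher, partly through the count filter as given below, beside 21.6% lower over all tested genes. Their summed level was 4784 and 4291 CPM in wt and 1115 and 1378 CPM in cml39, and no marker was at 0 in all libraries. PYK10, a beta-glucosidase gene, made up most of that sum, at 4293 and 3748 CPM in wt and 973 and 1210 CPM in cml39. Without it the sum of the other 19 was 491 and 542 CPM in wt and 142 and 169 CPM in cml39, 3.33-fold lower. The iron transporter gene IRT1 (log2 fold change -3.67) and the ferric reductase gene FRO2 (-3.60) had the lowest p among the root markers. SCR (0.21), MYB36 (-0.23), PLT1 (-0.40) and PLT2 (-0.86) did not pass, and the groups overlapped in PLT1 and PLT2. Of 9 markers of dividing cells, 8 were lower, beside the same 21.6%. Their sums were 163 and 132 CPM in wt and 36.1 and 36.4 CPM in cml39. The log2 fold change was -3.39 in both KNOLLE, a cytokinesis syntaxin gene, and the mitotic cyclin gene CYCB1;2. CDKB1;1 of this list, and COBL9, EXPA7, NRT2.1 and RHD6 of the root list, reached the count filter in both libraries of wt only. The falls of those genes are built into their being tested. They are among the 16 and the 8 called lower, so part of each count was fixed by the filter. PLT1 and PLT2, which did not pass, reached the filter in the same way. The 3.64-fold fall of the root sum and the 4.06-fold fall of the dividing-cell sum stood beside falls of 3.75-fold in GASA4 and 7.79-fold in GASA6, and their part in those results was not tested.

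Seed markers were low in wt, with sums of 5.66 and 6.79 CPM over 14 genes, and stood at 29.1 CPM in cml39 1 and 239 CPM in cml39 2. PAP85 alone made up 20.9 CPM of the sum in cml39 1, and without it the sums were 4.69 and 5.31 CPM in wt, 8.20 CPM in cml39 1 and 208 CPM in cml39 2. The storage protein genes CRA1, CRB, CRC and SESA1 and the oleosin gene OLEO1 had 0 or 1 count in cml39 1 and 36 to 1213 counts in cml39 2. Only 4 of the 14 seed markers were tested, of which PAP85 (log2 fold change 4.42) and PER1 (1.155) were higher. PER1, at 1.08 without wt 1 and 1.22 without wt 2, missed the threshold in both settings. OLEO2 (1.45, edgeR adjusted p = 0.264) and EM6 (0.98, edgeR adjusted p = 0.0848) did not pass. The log2 fold change of OLEO2 was -1.63 without cml39 2. Calls made up 50% of the tested seed markers, beside 40.9% over all tested genes. Flower organ markers summed to 11.7 and 12.7 CPM in wt and 181 and 165 CPM in cml39, where PI, a petal and stamen identity gene, alone made up 175 and 160 CPM (log2 fold change 4.57). The other flower markers did not follow PI, with sums of 5.93 and 4.26 CPM in wt and 5.68 and 5.58 CPM in cml39. SEP3 did not pass (0.18), AP3 (2, 1, 0 and 0 counts) and AG (4, 1, 0 and 1) were barely read, and AP1 had 0 counts throughout. Green tissue markers summed to 37207 and 37280 CPM in wt and 46250 and 45740 CPM in cml39, 1.23-fold higher, while GASA1 was 9.03-fold and GASA14 5.19-fold higher. Calls made up 50% of the green markers, all of them higher, beside 40.9% called and 19.3% higher over all tested genes. Of the 8 green markers 4 passed, among them RCA (log2 fold change 0.51) and LHCB3 (0.40), and neither RCA (edgeR adjusted p = 0.0502) nor LHCB3 (0.0560) passed without cml39 2. LHCB3 also missed the threshold without wt 1 (0.0796) and without cml39 1 (0.117). The part of these tissues in the results was not tested.

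The authors' deposited table, from a fit whose means cover libraries beyond these 4, listed 9 of the 10 members and called 3 of them, where 16.0% of 20717 genes with an adjusted p were called. In the authors' deposited table GASA1 was higher (log2 fold change 2.36 ± 0.53, adjusted p = 0.00022), as was GASA14 (1.87 ± 0.51, adjusted p = 0.00343), and GASA4 was lower (-1.78 ± 0.28, adjusted p = 3.36e-08). GASA6 was not called in the authors' deposited table (-1.42 ± 0.61, adjusted p = 0.0923), nor was GASA9 (-0.53, adjusted p = 0.528) or GASA10 (-1.07, adjusted p = 0.231). GASA7 was called neither there (0.46, adjusted p = 0.540) nor over the 4 libraries.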

How the data were processed

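Per the labels, RNA from 100 mg of tissue was made into stranded mRNA libraries. The submitters' processing notes name CASAVA 1.8, FastQC, STAR 2.5.2b, DESeq2 1.14.1 and TAIR10, without their roles, and the strand setting of the counting is not given in the sources used here. The deposited values used were the authors' raw read counts per gene. The authors' deposited DESeq2 table holds a mean normalized count (signal), log2 fold changes with their standard errors, a score (the Wald statistic) and p-values with adjusted p-values.

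In R 4.3.3, edgeR 4.0.16 was run on the counts with filterByExpr, trimmed-mean scaling and a two-sided quasi-likelihood F test of cml39 against wt, adjusted by Benjamini-Hochberg over 19834 genes. The SE was taken from the log2 fold change and F, as the size of the former divided by the root of the latter. Counts of replicate libraries differed by more than sampling noise, with a chi-square per gene of 9.86 in wt and 14.7 in cml39. Because reads have no molecular identifiers, the intervals and floors describe counting error alone. Alternatives used DESeq2 size factors, upper-quartile scaling, other filters, robust estimation, a block for the replicate number, DESeq2 1.42.0, limma-voom (limma 3.58.1) and each library left out. The test was run on simulated counts of 19537 genes, with 100 genes changed by 1 log2 unit and 100 by 2. It recovered 64 and 93 of them, 0 with the wrong sign, and made 15 false calls. Far fewer genes were changed in that simulation than were called in these libraries.

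Locus identifiers of 32548 genes matched TAIR10.1 and 285 did not. The names GASA7, GASA9 and GASA10 came with the list of identifiers. Promoters were taken as the 250 bases before the annotated start. The members and gene lists were chosen with earlier results of these data known. Named genes were all members, up to 4 genes per gibberellin list that passed, by lowest p, and all of lists of 2 genes. Up to 2 tested markers per marker list were also named. Further markers and list genes were named after their values were seen.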

Additional observations from a re-analysis of the deposited data

How the results depend on the processing

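GASA1, GASA4, GASA6, GASA9 and GASA14 passed in the same direction under every alternative run. Of 90 member values over all alternatives, 86 kept their side of the threshold, 3 lost it, 1 gained it and 0 reversed. Those 4 were GASA10 and GASA7 with a library left out, where the fitted log2 fold change ranged from -7.03 to -2.65 for GASA10 and from 0.060 to 0.89 for GASA7. The median over tested members was -0.33 with all counted genes in the test, where 9 members entered, and -0.086 at a minimum of 1 CPM in 2 libraries, where GASA10 dropped out and 6 members were left. With GASA10 left out of the median alone, chosen after seeing the data, it was -0.073, and without GA20OX1 or GA2OX1, chosen likewise, 1 synthesis gene and 0 inactivation genes were lower. The count of inactivation genes called lower was 2 under upper-quartile scaling, with all genes with a count, in the robust fit and with limma-voom, against 1, and the count of perception genes called higher was 2 under upper-quartile scaling and 2 with the replicate block, against 4. With each library left out in turn, 1868 to 4105 of all tested genes were higher and 2031 to 4552 lower, the lowest counts of both without wt 1. In the same settings 1 to 2 synthesis genes, 0 to 1 inactivation genes and 1 to 5 perception genes were higher, and 0 to 2 inactivation genes and 1 to 3 perception genes were lower. The cause was not tested. The labels give both groups replicate numbers 1 and 2 but no shared origin, and deviations of same-numbered libraries correlated at -0.15 across genes. With the replicate number as a block 6744 genes passed, and with the crossed pairing, chosen after seeing the data, 8696. GASA1 was 3.19 on the log2 scale with the block, and the block changed no member's call. Low counts limit GASA2, GASA3, GASA5 and GASA10.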
